A study of Rattus norvegicus with 24 samples.

Results

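The low-abundance miRNAs of rat serum were the 86 names chosen by their mean count: at least 1 and below 5 over 23 small RNA libraries. The table held 753 mature miRNA names, of which 440 had a count and 245 had a mean of 1 or more. The range held 93 names, and 7 of them, let-7 and other miRNAs on a fixed list of names, were left out. The 86 miRNAs were 35.1% of the names with a mean of 1 or more and took 4753 of 1164051 miRNA counts, or 0.408%. The mean was taken over all libraries without regard to diet or exposure, but a difference between groups can still place a miRNA in the range: 7 of the 86 had a mean below 1 on the normal diet and 17 on fish oil, and these reached the range through the other diet. The low level itself is fixed by the choice. At the lower end miR-204-5p and miR-214-3p fell just outside with a mean count of 0.957 each, and miR-26b-3p and miR-3590-3p just inside with 1. At the upper end miR-450b-3p (mean count 4.83) and miR-455-5p (4.91) were inside, and miR-484 (5.17) and miR-15b-5p (5.30) outside.

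The libraries came from serum of male Wistar Kyoto rats, 1 library per rat, in a design that crossed diet with inhaled ozone. From 4 weeks of age and for 8 weeks the rats ate either a normal chow or a diet with 6% fish oil by weight. They then breathed filtered air or 0.8 ppm ozone (0.8045 ppm as measured) for 4 h on each of 2 days. The groups were normal diet in air (n = 6), normal diet in ozone (n = 6), fish oil in air (n = 6) and fish oil in ozone (n = 5). No other oil was given in these groups, so fish oil cannot be told apart from any other difference between the diets. Rats were housed in pairs, and the labels do not say which rats shared a cage, so p-values measure the spread between rats as if each were independent.

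A miRNA is a short RNA cut from a hairpin precursor. Either arm of the hairpin, named 5p or 3p, can be loaded into an Argonaute protein, where bases 2 to 8, the seed, pair with target mRNAs. In most hairpins one arm is kept and the other, the passenger, is degraded, so passenger arms are usually rare. Serum miRNAs are carried in vesicles, lipoproteins and protein complexes, and come from blood cells, endothelium, liver, muscle and other tissues. The relative part of release, clearance and carriage cannot be read from a serum level.

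The mature sequences below are from RefSeq (rat, build GRCr8), 5′ to 3′, with the seed in capitals. RefSeq held 79 of the 86 names. The first 6 are miRNAs whose level differed between diets, and they show that each carries a seed of its own.

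miR-323-3p: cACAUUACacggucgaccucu

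miR-542-3p: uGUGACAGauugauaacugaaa

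miR-542-5p: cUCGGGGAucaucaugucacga

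miR-216a-5p: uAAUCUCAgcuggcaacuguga

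miR-362-3p: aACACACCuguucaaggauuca

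miR-674-5p: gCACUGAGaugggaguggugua

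The next 4 are neighbours of miR-542 on the X chromosome, shown because that cluster is described as a unit below. The seed of miR-322-5p is also that of miR-15b-5p, miR-16-5p and miR-497-5p, which were counted at higher levels.

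miR-322-5p: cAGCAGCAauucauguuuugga

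miR-322-3p: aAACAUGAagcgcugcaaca

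miR-503-5p: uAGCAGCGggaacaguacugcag

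miR-450b-3p: aUUGGGGAcgcuucgcauuca

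Of the 79 sequences, 78 seeds were different. The shared seed belonged to miR-196a-5p and miR-196b-5p, which are encoded in the Hox gene clusters and differ outside the seed.

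miR-196a-5p: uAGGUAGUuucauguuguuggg

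miR-196b-5p: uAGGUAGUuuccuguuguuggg

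One more pair shows a limit of the counts. The sequences of miR-181a-1-3p and miR-3570 are exact reverse complements of each other.

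miR-181a-1-3p: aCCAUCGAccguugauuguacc

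miR-3570: gGUACAAUcaacggucgauggu

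In the deposited table both stand at chromosome 13, 59986129 to 59986151 (rn5), and their values were equal in 23 of 23 libraries, 54.5 counts each in all. Their reads therefore cannot be told apart, and this pair is 1 measurement. miR-151-5p (chromosome 7, 114421168 to 114421189) overlaps miR-3586-3p (114421166 to 114421189), and reads there were divided between the names in shares that varied by library, 95.9 against 86.1 counts in all. Counts of miR-151-5p varied more than those of any other of the 86, with a Pearson dispersion of 7.63 (1 is counting noise alone), so single values of these 2 names are uncertain. The median length of the 79 sequences was 22 bases and the median GC content 50%, against 45.5% in 148 other tested names.

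Detection was patchy. Of 1978 values (86 miRNAs in 23 libraries), 28.3% were 0, 35.7% were 1 or 2 counts and 35.9% were 3 counts or more, and the highest value was 21. A single count was worth 10.6 to 43.0 CPM (counts scaled to a common library total), and 3 counts, taken as the least that can be told from 0, were worth 66.1 CPM in the median library. Such limits cover counting error only, since PCR copies without molecular identifiers are not independent molecules. The median miRNA of the set was detected, that is had 1 count or more, in 17 libraries, 23 were detected in at least 20 and 13 in at most 12.

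miR-455-5p, an arm of a hairpin within a collagen gene (Col27a1), was the 1 miRNA detected in all 23 libraries. miR-542-3p, miR-132-3p (a miRNA induced by neuronal activity and in endothelium), miR-181a-1-3p and miR-3570 followed, with 22 libraries each. At the other end miR-26b-3p, miR-3590-3p and miR-143-5p were detected in 9 libraries and miR-6329 and miR-433-3p in 10. Counts within groups scattered beyond counting noise for most of the set, with a median Pearson dispersion of 1.77. The dispersion was below 1.5 for 29 miRNAs and 3 or more for 8. The heat map of counts shows this patchwork.

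**Figure D1:**
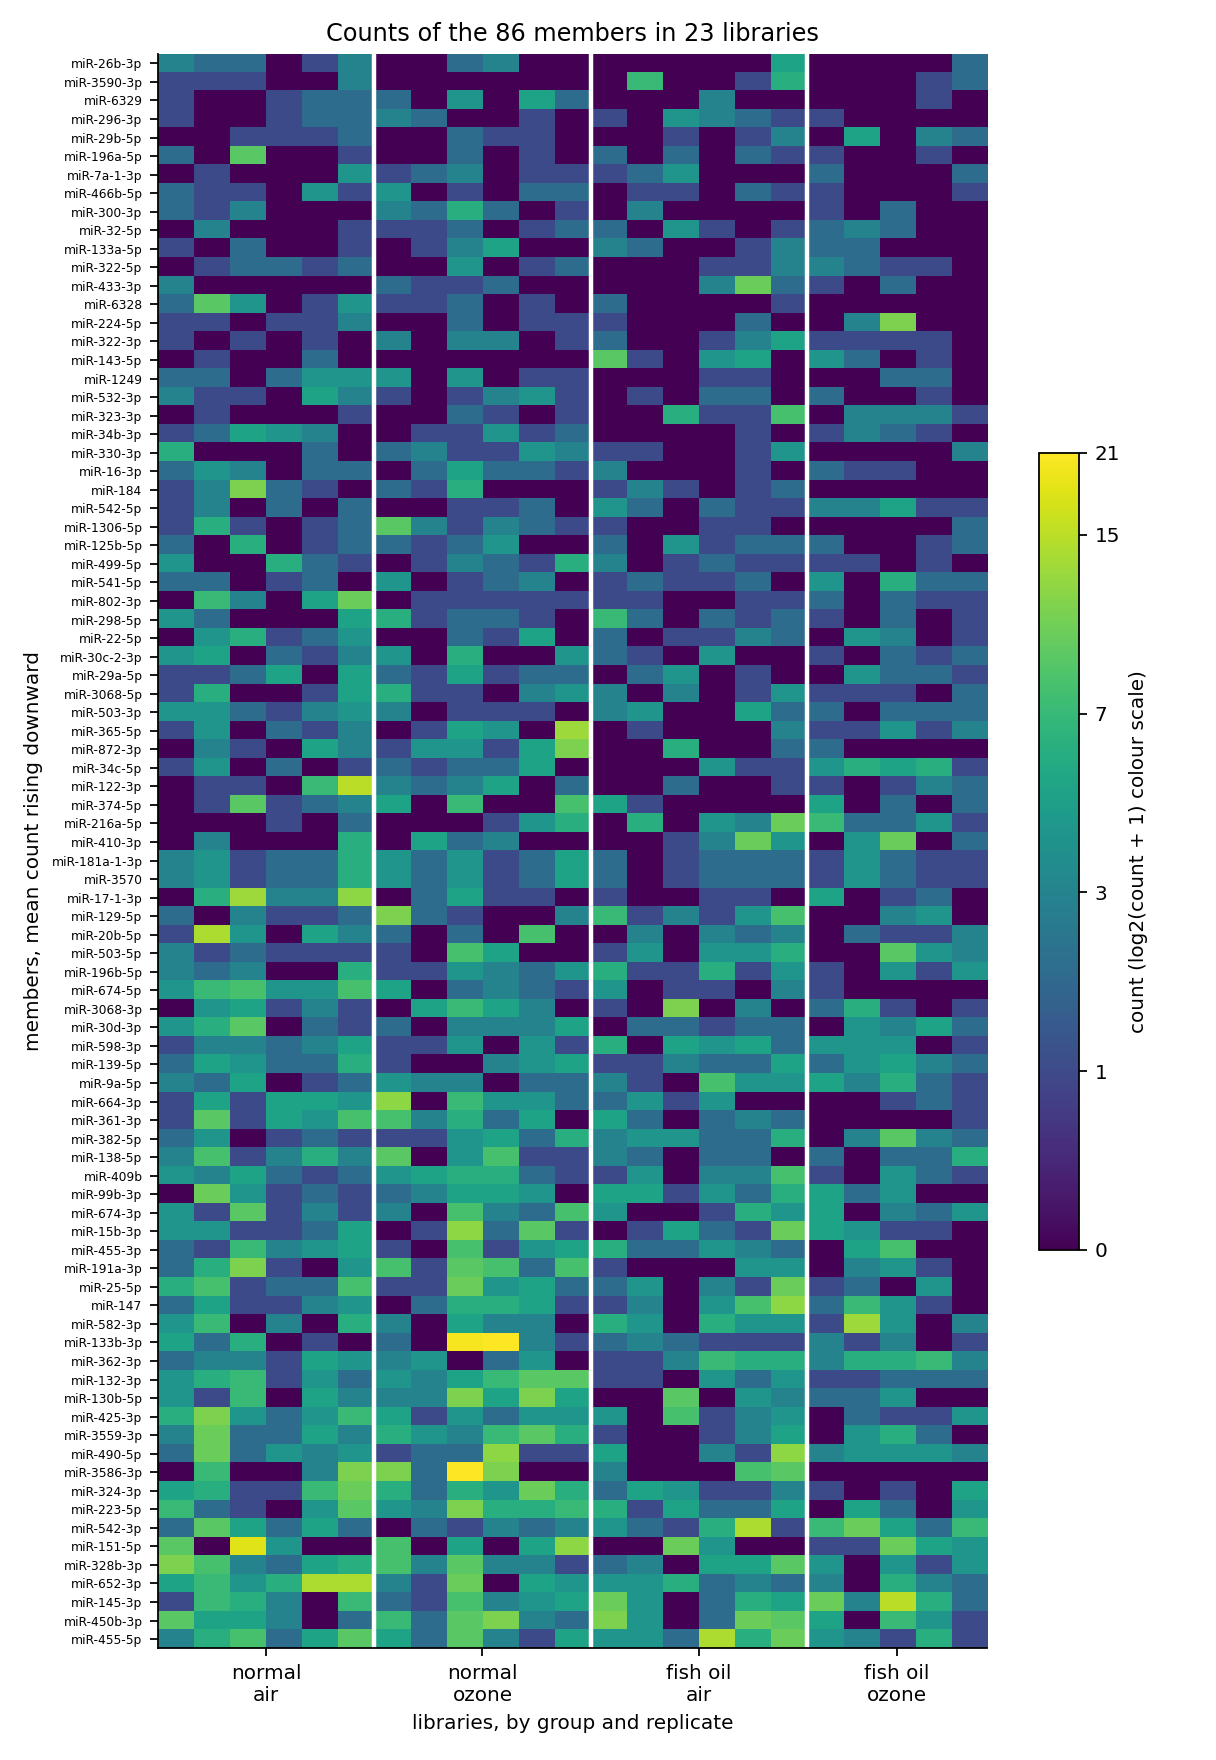
Counts of each of the 86 miRNAs (rows, mean count rising downward) in each of 23 libraries (columns, by group), on a log2(count + 1) colour scale. Most cells hold 0 to 2 counts, and the bright cells, up to 21 counts for miR-133b-3p and miR-3586-3p in normal ozone libraries, are scattered over rows and libraries.

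Rats on fish oil had fewer of the 86 miRNAs detected, but a larger share of their miRNA counts came from them. The number detected per library was 66.8 ± 7.83 (SD, n = 6) in normal air libraries, with 64.7 ± 8.89 (n = 6) in normal ozone libraries. On fish oil it was 58.3 ± 11.7 (n = 6) in air and 55.8 ± 6.30 (n = 5) in ozone. Groups overlapped widely, with 54 to 80 detected on the normal diet and 41 to 72 on fish oil.

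The miRNA total moved with diet, at 33739 to 94264 counts per library on the normal diet and 23276 to 53694 on fish oil. When every library was reduced to the smallest total, 23276 counts, the expected number detected on the normal diet was 45.3 ± 3.92 (air) and 45.2 ± 3.09 (ozone). On fish oil it became 49.5 ± 5.76 in air and 49.1 ± 3.24 in ozone. The direction of the diet difference thus turned when the miRNA totals were made equal, from 8.57 fewer to 4.09 more detected on fish oil.

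By miRNA, 61 of the 86 were detected in a smaller share of fish oil libraries, 24 in a larger share and 1 in an equal share. Fisher's exact test, two-sided and adjusted over the 245 names by Benjamini-Hochberg, called 0 of the 86, beside 0.0% of all 245 names. At an unadjusted p under 0.05 it gave 7 of the 86, beside 8 of all 245 names. Of the 7, 6 were detected less often on fish oil and 1, miR-143-5p, more often (7 of 11 libraries against 2 of 12). The smallest p was that of miR-1306-5p, detected in 4 of 11 fish oil and 11 of 12 normal diet libraries (exact p = 0.00942, adjusted p = 1). The miRNA total moved with these counts, and its part in them was tested only through the reduced totals above. miR-1306-5p reached the range through the normal diet libraries, with a mean count of 2.5 there and 0.455 on fish oil.

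The summed level of the 86 miRNAs was higher on fish oil per miRNA count. They took 0.354% ± 0.0574 of the miRNA counts in normal air libraries (n = 6), with 0.366% ± 0.0318 in normal ozone libraries (n = 6). On fish oil they took 0.505% ± 0.0402 in air (n = 6) and 0.480% ± 0.0834 in ozone (n = 5). The means of both normal diet groups lay within 1 SD of each other, and so did those of both fish oil groups.

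The lowest, median and highest library was 0.260%, 0.358% and 0.422% in normal air, and 0.323%, 0.368% and 0.400% in normal ozone. On fish oil these were 0.446%, 0.524% and 0.539% in air and 0.382%, 0.452% and 0.597% in ozone. All 6 fish oil air libraries thus lay above all 12 normal diet libraries, while the fish oil ozone group overlapped them. Pooled over libraries, the share was 0.361% (exact Poisson 95% interval 0.342 to 0.380%), 0.371% (0.352 to 0.391%), 0.502% (0.473 to 0.533%) and 0.480% (0.448 to 0.515%) in the same order of groups. The set was chosen with results of these data known, so no p is given for this sum.

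This share depends on what it is a share of. The summed count itself was lower on fish oil, at 187 ± 57.0 in air and 160 ± 47.0 in ozone, against 237 ± 78.5 and 235 ± 85.6 on the normal diet. Leaving the 5 most abundant miRNAs of the serum, which held 50.5% of the counts, out of the total kept both fish oil means above both normal diet means. Rats on normal chow then had 0.743% ± 0.0805 in air and 0.720% ± 0.0344 in ozone, so the order of these 2 groups turned, and rats on fish oil had 1.002% ± 0.0549 and 0.966% ± 0.121. Per read of the larger total implied by the authors' RPM values, the share was instead lower on fish oil, 0.00334% ± 0.000974 in air and 0.00415% ± 0.00232 in ozone, against 0.00506% ± 0.00282 and 0.00584% ± 0.00257. On the log2 scale fish oil lay +0.46 above the normal diet per miRNA count (SD within groups 0.19) and -0.53 below it per implied read (SD 0.68). Fewer reads of a miRNA and more of everything else cannot be told apart in these data.

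**Figure D2:**
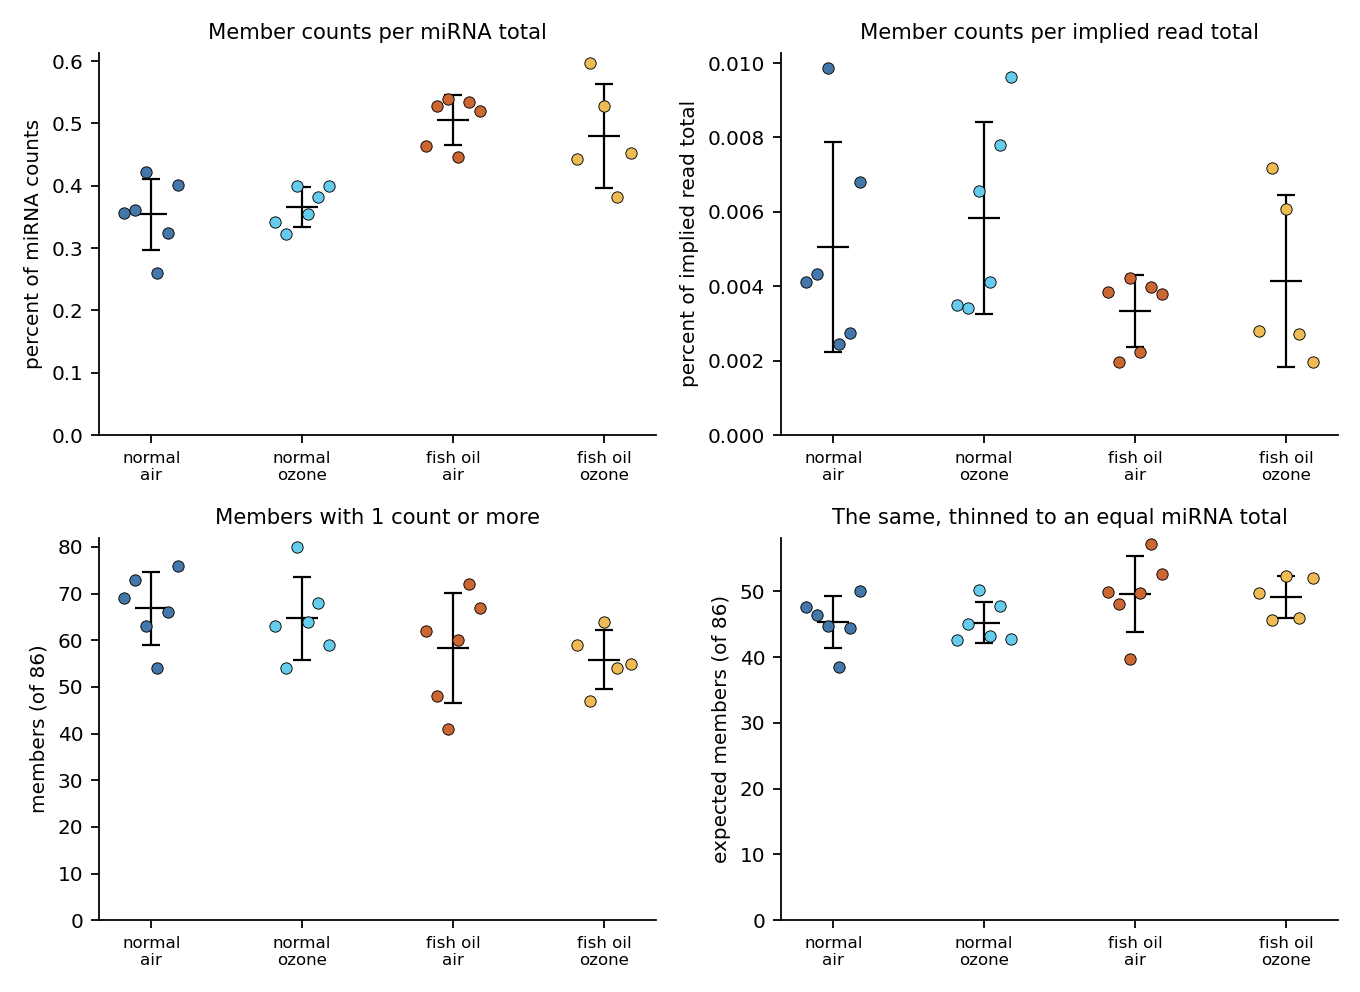
Each point is a library, with the group mean and SD (n = 6, 6, 6 and 5). The upper panels show the summed count of the 86 miRNAs as a percent of the miRNA total and of the implied read total, and the lower panels the number detected before and after each library was reduced to 23276 counts. Fish oil is higher in the first and last panel and lower in the other ones.

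Tested one by one, 8 of the 86 miRNAs differed between fish oil and normal diet averaged over exposures: 7 rose and 1 fell (edgeR quasi-likelihood test on TMM-scaled counts, Benjamini-Hochberg over 245 names, threshold 0.05). Those that rose were miR-143-5p, miR-323-3p, miR-542-3p, miR-216a-5p, miR-362-3p, miR-542-5p and miR-145-3p, and the 1 that fell was miR-674-5p. The 8 called are 9.30% of the set, against a background of 22% of all 245 names (10.6% higher and 11.4% lower). The median standard error of the log2 fold change was 0.64 among the 86 and 0.25 among the other 159 names, so a difference had to be larger to be called here. The median log2 fold change was +0.08 in the set and -0.00 over all names. At an unadjusted p under 0.05 there were 20, beside 91 of all 245 names. DESeq2 called 13 (11 higher and 2 lower, with no adjusted p for 17), beside 40 higher and 32 lower of all names. The 8 called by edgeR were all among the 13.

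The sign of these differences is relative to the typical miRNA of a library. Scaling by the implied read total moved the median of all 245 names to -0.86 and by the miRNA total to +0.18. Under the implied read total the calls among the 86 were 2 higher and 14 lower, beside 3 higher and 94 lower of 245 names. Under the miRNA total they were 9 higher and 0 lower, beside 39 higher and 14 lower. miR-143-5p, miR-323-3p and miR-674-5p kept their call and direction under the implied read total.

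miR-143-5p, the passenger arm of a hairpin abundant in smooth muscle, had the highest ratio of summed counts between diets among the 86. On the normal diet in air its count was 0 at the lowest, 0 at the median and 2 at the highest, and in ozone it was 0 in all 6 libraries. On fish oil in air the lowest, median and highest were 0, 2.5 and 9, and in ozone the counts were 4, 2, 0, 1 and 0. Diets overlapped at 0, and counts above 2 occurred in fish oil libraries only, in 4 of 11. Summed, 26 counts against 3 gave a ratio of 17.2 per miRNA count (95% counting interval 5.27 to 88.8). Its adjusted p was 0.00309 (edgeR), with 7 of 11 fish oil libraries above the normal diet mean, and the call held in all 29 alternative settings. The fitted fold is not given, since 1 of the groups it averages over had no count. With 3 counts in the 12 normal diet libraries, the miRNA reached the range through the fish oil libraries, so the call is not independent of the choice of the set.

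miR-145-3p comes from the neighbouring hairpin (chromosome 18, 56198834 to 56198855, with miR-143-5p at 56200245 to 56200266), also a smooth muscle miRNA and also the rarer arm. Its lowest, median and highest counts were 0, 4.5 and 7 in normal air, 1, 3.5 and 8 in normal ozone and 0, 4.5 and 10 on fish oil in air. In fish oil ozone libraries the counts were 10, 3, 15, 6 and 2. Ranges overlapped between diets, and 9 of 11 fish oil libraries lay above the normal diet mean in CPM. Its log2 fold change was +1.25 (SE 0.43, adjusted p = 0.0318). The call was lost under the implied read total (+0.34, adjusted p = 0.636) and when 1 library was left out, for each of 8 libraries: normal air 1 and 5, normal ozone 1 and 4, fish oil air 1 and 5, fish oil ozone 1 and 4 (adjusted p up to 0.0892).

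miR-323-3p, of the imprinted Dlk1-Dio3 cluster expressed in brain and in development, was close to absent on the normal diet. Its lowest, median and highest counts were 0, 0 and 1 in normal air, 0, 0.5 and 2 in normal ozone and 0, 1 and 8 on fish oil in air. The 5 fish oil ozone libraries had 0, 3, 3, 3 and 1. Counts of 3 or more were seen in 5 libraries, all on fish oil, and the ranges overlapped at 0 to 2. Its difference was +2.64 on the log2 scale (SE 0.68, adjusted p = 0.00416), higher than the normal diet mean in 8 of 11 libraries, and the call held in all 29 alternatives. It too reached the range through the fish oil libraries, with 26 counts there and 6 in the 12 normal diet libraries.

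miR-216a-5p is a miRNA of the exocrine pancreas. Its lowest, median and highest counts were 0, 0 and 2 in normal air, 0, 0.5 and 6 in normal ozone and 0, 3.5 and 10 on fish oil in air. The 5 fish oil ozone libraries had 7, 2, 2, 4 and 1, and in that group it was above 0 in every library. It rose with a log2 fold change of +2.34 (SE 0.66, adjusted p = 0.00946), with 9 of 11 fish oil libraries above the normal diet mean. The call was lost in 1 of 29 alternatives, the implied read total (+1.34, adjusted p = 0.139). It lies on chromosome 14 at 112802280 to 112802302. Its more abundant neighbour miR-217-5p, at 112809693 to 112809715 and also of the pancreas, rose as well (log2 fold change +3.08, SE 0.66, adjusted p = 0.00204). Both tested names of the pancreas list thus rose.

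The arms of miR-542, a hairpin of an X chromosome cluster expressed in mesenchymal and other cells, both rose. For miR-542-3p the lowest, median and highest counts were 2, 3.5 and 9 in normal air, 0, 2 and 3 in normal ozone and 1, 3 and 14 on fish oil in air. In fish oil ozone libraries they were 7, 10, 5, 2 and 7. In 4 of 5 fish oil ozone libraries the count exceeded that of every normal ozone library, whereas the air groups overlapped. The log2 fold change of miR-542-3p was +1.64 (SE 0.46, adjusted p = 0.00911), with 9 of 11 fish oil libraries above the normal diet mean. The call was lost only under the implied read total (+0.85, adjusted p = 0.210).

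For miR-542-5p the lowest, median and highest counts were 0, 1.5 and 3 in normal air, 0, 0.5 and 2 in normal ozone and 0, 1.5 and 4 on fish oil in air. Those on fish oil in ozone had 3, 3, 5, 1 and 1. All groups overlapped. The 5p arm had a log2 fold change of +1.71 (SE 0.59, adjusted p = 0.0318), with 9 of 11 libraries above the normal diet mean. This call was lost in 10 of 29 alternatives, among them leaving out 1 of 8 libraries: normal air 5, normal ozone 1 and 3, fish oil air 1, 2 and 4, fish oil ozone 3 and 4 (adjusted p up to 0.0829).

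miR-362-3p stands in another X chromosome cluster, within the Clcn5 gene. Its lowest, median and highest counts were 1, 3 and 5 in normal air, 0, 2.5 and 4 in normal ozone and 1, 4.5 and 7 on fish oil in air. In fish oil ozone libraries the counts were 3, 6, 6, 7 and 3. Counts above 5 occurred on fish oil only, in 6 of 11 libraries. The fitted log2 fold change was +1.40 (SE 0.46, adjusted p = 0.0250), and 9 of 11 fish oil libraries were above the normal diet mean. The call was lost under the implied read total (+0.70, adjusted p = 0.300) and without normal ozone 3 (0.0521) or fish oil air 4 (0.0576). miR-532-3p of the same cluster had a log2 fold change of -0.63 (SE 0.70, adjusted p = 0.549).

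miR-674-5p, a rodent miRNA, fell. Its lowest, median and highest counts were 4, 5.5 and 8 in normal air, 0, 2 and 5 in normal ozone and 0, 1 and 4 on fish oil in air. In fish oil ozone libraries the counts were 1, 0, 0, 0 and 0. All 6 normal air libraries had 4 counts or more, against 1 of 11 fish oil libraries. The normal ozone libraries had 5, 0, 2, 3, 2 and 1, so the high counts lay mostly in normal air and not on the normal diet as a whole. The fitted log2 fold change was -1.76 (SE 0.65, adjusted p = 0.0450), with 10 of 11 fish oil libraries below the normal diet mean. This was the call nearest the threshold and was lost in 17 of 29 alternatives, including 14 of the 23 that left out 1 library (adjusted p up to 0.0973). miR-674-5p reached the range through the normal diet libraries, with a mean count of 4 there and 0.909 on fish oil. Its call is therefore not independent of the choice of the set. The 2 miRNAs next in order missed the threshold. miR-3590-3p had 0.775 counts per 100000 on the normal diet and 4.36 on fish oil (edgeR adjusted p = 0.0542). It reached the range through the fish oil libraries, with a mean count of 0.5 on the normal diet. miR-361-3p had a log2 fold change of -1.70 (edgeR adjusted p = 0.0559).

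**Figure D3:**
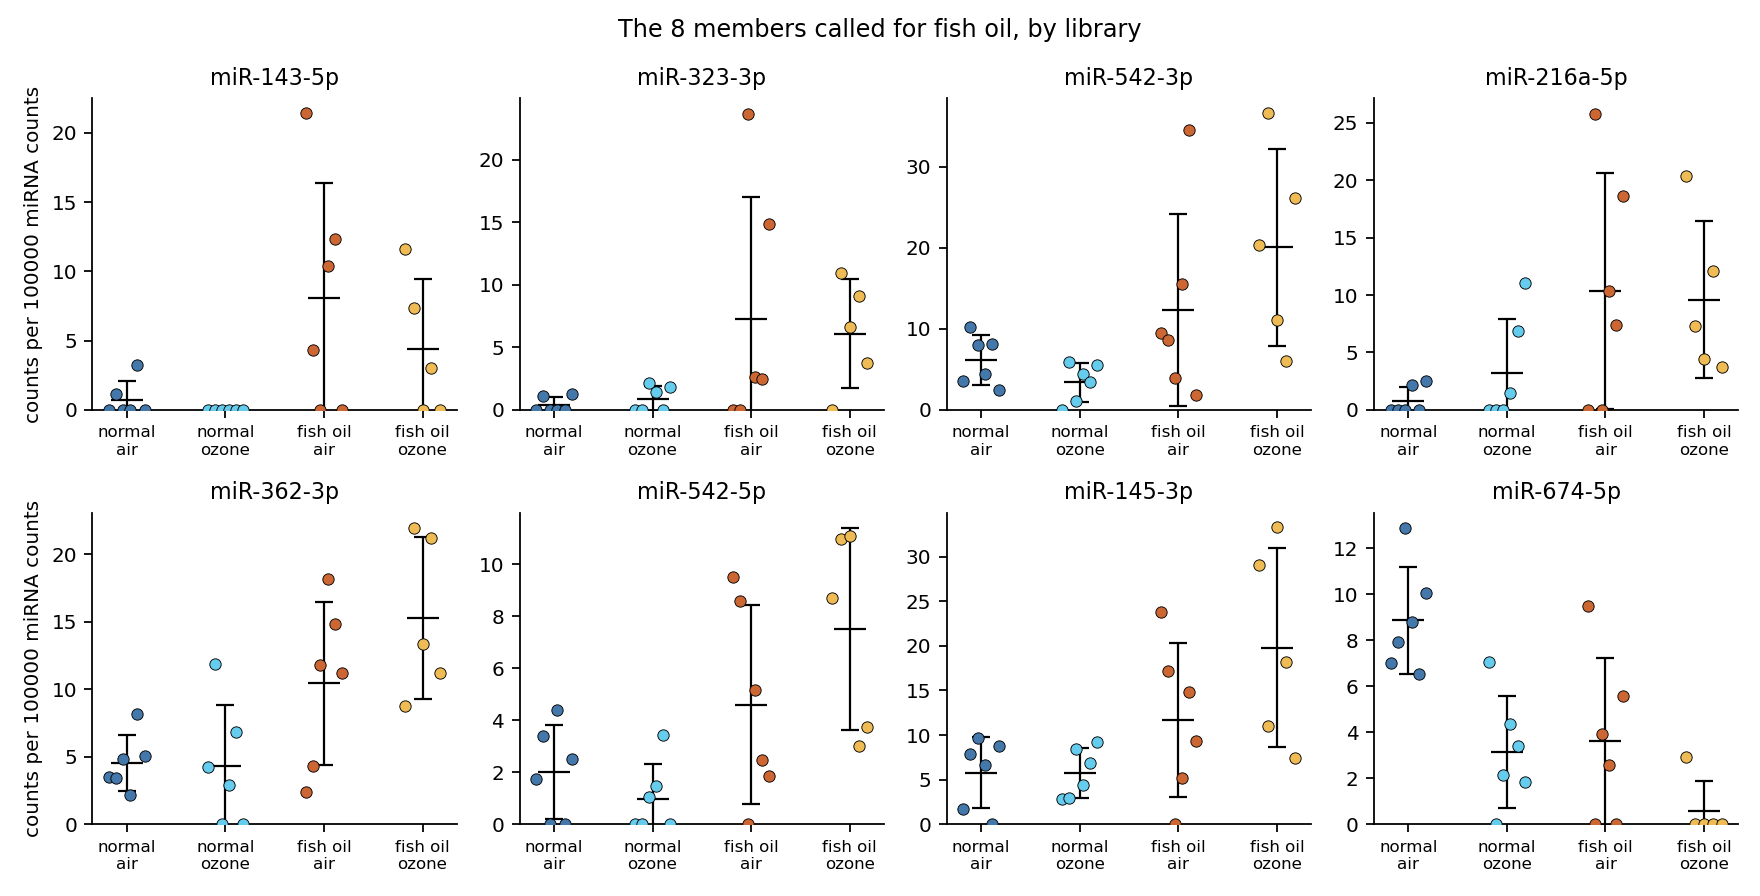
Counts per 100000 miRNA counts of the 8 miRNAs called for fish oil averaged over exposures, 1 point per library, with the group mean and SD (n = 6, 6, 6 and 5). 7 have higher means in both fish oil groups. miR-674-5p has its highest mean in normal air and its lowest in fish oil ozone, and fish oil air is not below normal ozone. In each panel libraries of the diets overlap.

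Within each exposure fewer differences were called. In air edgeR called 0 of the 86, beside 2.86% of all names. The smallest adjusted p there was 0.0707, for miR-323-3p (log2 fold change +3.04) and miR-216a-5p (+3.09). There were 12 at an unadjusted p under 0.05, beside 55 of all 245, and DESeq2 gave none of the 86 an adjusted p. In ozone 3 rose and 0 fell (3.49%), beside 11.4% of all names (6.12% higher and 5.31% lower). They were miR-542-3p (+2.51, SE 0.68, adjusted p = 0.0125), miR-542-5p (+2.56, SE 0.86, adjusted p = 0.0462) and miR-143-5p (adjusted p = 0.0440). DESeq2 called 4 there, 3 higher and 1 lower: miR-542-3p, miR-145-3p, miR-362-3p and miR-361-3p. Of the 3 that edgeR called, only miR-542-3p was called by both tools, but DESeq2 gave no adjusted p for 47 of the 86. DESeq2 without independent filtering, an alternative chosen after seeing the data, called 4 higher and 0 lower, with miR-542-5p among them and not miR-143-5p. It called 20 higher and 15 lower of all names. The call of miR-542-5p in ozone was lost in 19 of 28 alternatives, that of miR-143-5p in 13 of 28 and that of miR-542-3p in 3 of 29. With the implied read total none of the 3 was called, and 0 rose and 3 fell, beside 0 higher and 39 lower of all names. Since miR-143-5p had no count in normal ozone libraries, its 7 counts on fish oil in ozone were at least 5.33-fold higher per miRNA count, taking 3 counts over the group as the floor.

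All 3 calls in ozone rest on single libraries: without normal ozone 3, or without fish oil ozone 3, 0 remained, and without fish oil ozone 6 there were 9. miR-542-3p then had an adjusted p of 0.0528 without normal ozone 3 and 0.0638 without fish oil ozone 3. Whether the diet difference itself depended on exposure was tested as an interaction, which called 0 of the 86, beside 0.0% of all names. At an unadjusted p under 0.05 there were 5, beside 11 of all 245, and DESeq2 called 0 of the 86. A call in ozone and none in air is therefore not shown to be a difference between them.

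Ozone gave no called difference in any of the 86 miRNAs. Averaged over diets edgeR called 0, beside 0.0% of all names, with 7 at an unadjusted p under 0.05, beside 14 of all 245. DESeq2 called 0 of the 86, beside 1 higher and 0 lower of all 245. On the normal diet edgeR called 0, beside 0.0% (6 unadjusted, beside 11 of all names, and 0 by DESeq2). On fish oil it called 0, beside 0.0% (6 unadjusted, beside 14 of all names, and 0 by DESeq2). The median standard error for ozone averaged over diets was 0.61 on the log2 scale, so modest differences were not detectable at this depth. The contrasts of fish oil and ozone were taken from the same 4 groups and share libraries.

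The 5 smallest p for ozone belonged to miR-674-5p, miR-184, miR-3590-3p, miR-34c-5p and miR-361-3p (adjusted p = 0.759 to 0.771 by edgeR). For miR-674-5p, whose counts are given above, the log2 difference of ozone from air was -1.78 (SE 0.65). miR-34c-5p, a p53 target that also marks ciliated epithelium, had 0, 1 and 4 counts (lowest, median and highest) in normal air libraries, with 0, 2 and 5 in normal ozone libraries. On fish oil it had 0, 0.5 and 4 in air and 4, 6, 5, 6 and 1 in the ozone libraries, and the log2 difference for ozone was +1.42 (SE 0.59). For miR-361-3p, normal air libraries had 1, 4.5 and 9 counts and normal ozone libraries 0, 4 and 8. On fish oil it had 0, 2 and 5 in air and 0, 0, 0, 0 and 1 in ozone, with a log2 difference of -1.52 (SE 0.66). miR-184, a miRNA of eye and brain, had 4.21 counts per 100000 in air and 1.65 in ozone, with 0 counts in every fish oil ozone library. miR-3590-3p had 3.24 per 100000 in air and 0.549 in ozone, with 0 counts in every normal ozone library. In these 2, fitted values depend on the prior count and are not given.

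The X chromosome cluster of miR-322, miR-503, miR-542 and miR-450 gave 7 of the 86 miRNAs, and all 7 had positive log2 fold changes for fish oil, or 5 of 7 under the implied read total, where miR-450b-3p and miR-322-5p turned negative. Over the whole set 47 of 86 were positive, or 25 under the implied read total. Of the 7, 2 were called, beside 22% of all 245 names. These were miR-542-5p and miR-542-3p, and the other values were +1.39 for miR-503-5p (SE 0.58, adjusted p = 0.0750), +0.94 for miR-322-3p, +0.83 for miR-503-3p, +0.57 for miR-450b-3p and +0.47 for miR-322-5p. The cluster is best known in muscle differentiation, fibroblasts and placenta. In the deposited table its hairpins stand at several places between 152773490 and 153216343 of chromosome X (rn5), and counts of the copies were summed. Neighbours of higher abundance were miR-351-5p at +0.01 (SE 0.36) and miR-450a-5p at +0.84 (SE 0.33, adjusted p = 0.0559).

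Summed, these 7 miRNAs had 24.5 ± 6.81 counts per 100000 in normal air libraries (n = 6), with 20.9 ± 9.05 in normal ozone libraries (n = 6). On fish oil they had 52.9 ± 29.98 in air (n = 6) and 56.8 ± 8.15 in ozone (n = 5). The normal diet libraries lay between 11.9 and 35.1. Fish oil air 3 was the lowest library of all at 3.94, which is a single count, and the other 10 fish oil libraries lay between 41.5 and 93.7, above every normal diet library. Without fish oil air 3 the fish oil air mean was 62.7 ± 20.1 (n = 5). The cluster was grouped after values of its members were known, so this is a description with no test.

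The Dlk1-Dio3 cluster on chromosome 6, an imprinted region with a large array of miRNAs expressed from the maternal allele, also gave 7 of the 86. miR-323-3p rose, and the log2 fold changes of the others were +1.50 for miR-410-3p (SE 0.70), +1.26 for miR-433-3p (SE 0.85), +1.20 for miR-382-5p (SE 0.48), +1.01 for miR-541-5p (SE 0.62), +0.03 for miR-409b (SE 0.48) and -0.65 for miR-300-3p (SE 0.78). Their adjusted p ran from 0.0605 to 0.976. The median was +1.20, against -0.00 over all names, and 6 of 7 were positive, or 5 of 7 under the implied read total, where miR-409b turned negative. Summed, they had 13.5 ± 5.36 counts per 100000 in normal air libraries, 24.0 ± 10.7 in normal ozone libraries, and on fish oil 45.0 ± 19.9 in air and 39.4 ± 23.4 in ozone. Libraries of the diets overlapped, from 8.16 to 41.5 on the normal diet and from 11.9 to 79.9 on fish oil.

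The list of miRNAs used for this cluster had 41 counted names, and 8 had a mean of 1 or more. These were the 7 above and miR-434-3p (+0.78, SE 0.41, edgeR adjusted p = 0.165). The plot of both clusters sets these values side by side.

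**Figure D4:**
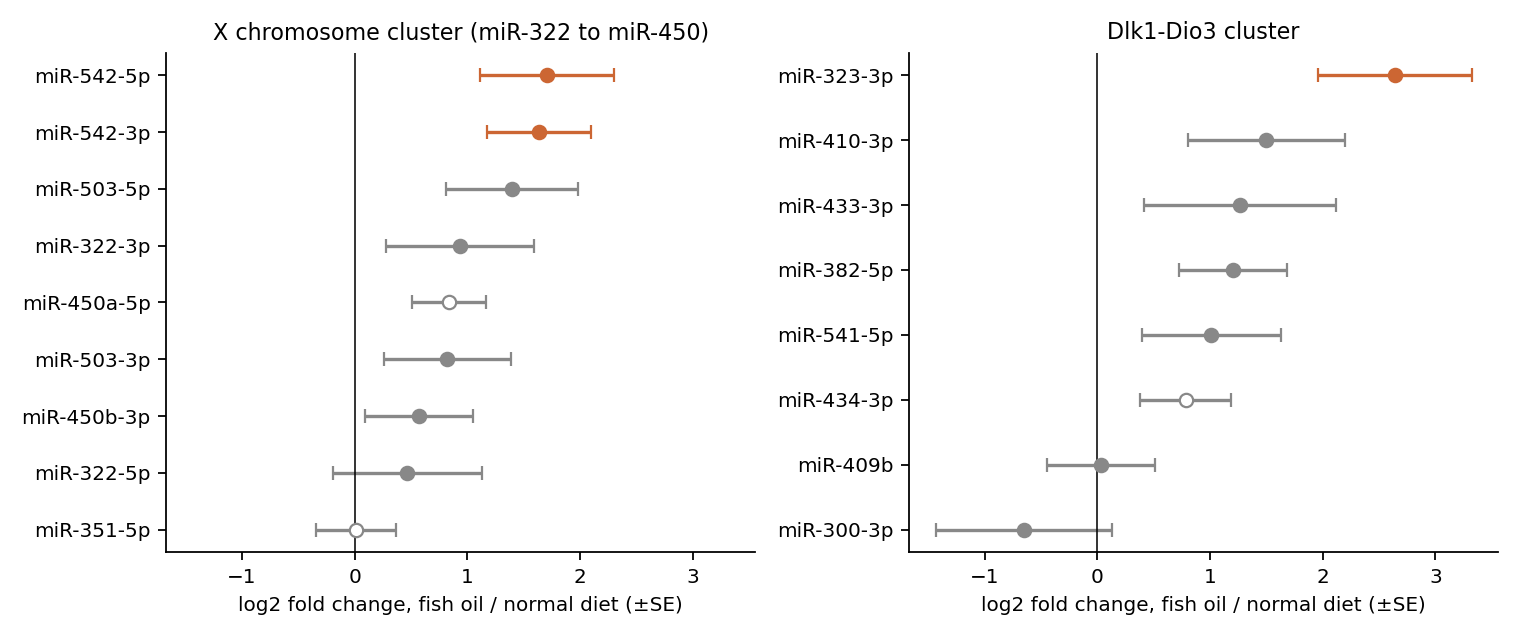
Log2 fold change of fish oil over the normal diet, averaged over exposures, with its SE, for the tested miRNAs of the X chromosome cluster (left) and the Dlk1-Dio3 cluster (right). Orange marks an adjusted p below 0.05, filled points are among the 86 and open points are more abundant neighbours; 7 of 7 low-abundance miRNAs on the left and 6 of 7 on the right lie above 0.

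By cell or tissue, 54 of the 86 stood on at least 1 of 14 lists of miRNAs and 32 on none. The list of vascular and mesenchymal miRNAs held 12, of which 4 rose and 0 fell (miR-143-5p, miR-145-3p, miR-542-3p and miR-542-5p), beside 10.6% of all 245 names higher and 11.4% lower. All 12 had positive log2 fold changes, or 7 of 12 under the implied read total, and the median was +0.88. The 12 include all 7 names of the X chromosome cluster above, so much of this repeats the values given there. Of all 32 tested names on that list, 13 rose and 2 fell, with a median of +0.80. Its 12 low-abundance names took 0.0413% of the miRNA counts on the normal diet and 0.0974% on fish oil. The lists were written with results of these data known, so these are counts and not tests.

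On the other lists, apart from Dlk1-Dio3 and pancreas above, none of the low-abundance names was called in either direction. They were 8 neural names such as miR-132-3p and miR-9a-5p (median +0.18), 4 liver names such as miR-455-5p and miR-122-3p (+0.07) and 4 red cell and platelet names such as miR-652-3p and miR-16-3p (-0.08). There were also 4 immune names such as miR-223-5p and miR-147 (-0.12), 3 striated muscle names, miR-133b-3p, miR-499-5p and miR-133a-5p (-0.56), and 3 of the miR-17-92 family and its paralogs (-0.17). The miR-29 and miR-30 families had 4 (+0.13), epithelial and sensory cells 4, among them the miR-196 pair (+0.46), p53 and hypoxia 2, miR-34b-3p and miR-34c-5p (-0.02), and other imprinted genes 2, miR-296-3p and miR-298-5p (+0.13). The germline list had none. As a check of the label, miRNAs known from serum were present: miR-122-5p of hepatocytes, miR-16-5p and miR-451-5p of red cells and miR-223-3p of myeloid cells were detected in all 23 libraries with mean counts of 1135, 841, 29.4 and 91.1. The neuronal miR-124-3p had 0 counts, while 29 of 55 names on the neural list were counted, such as miR-9a-5p in 20 libraries.

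Many of the 86 are the rare arm of an abundant hairpin. The other arm was counted for 56, and it was the more abundant one for 33 and the less abundant one for 23. For 6 hairpins both arms were in the set. The largest ratios of the other arm to the rare one, by mean count, were 6793 for miR-143-5p, 2843 for miR-191a-3p, 1245 for miR-22-5p, 586 for miR-16-3p, 533 for miR-122-3p and 365 for miR-25-5p.

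For 21 of the rare arms the other arm was at least 10 times as abundant. The log2 fold change for fish oil had the same sign in both arms in 14 and the opposite sign in 7, or in 20 and 1 under the implied read total. In 9 of the 21 the abundant arm was called, beside 22% of all 245 names. The rare arm had the same sign in 8, with miR-151-5p, whose reads are shared, as the exception. Some of these rare arms had values smaller than their SE, such as miR-223-5p (-0.07, SE 0.49) and miR-425-3p (-0.14, SE 0.47), so their signs are uncertain. Others, such as miR-191a-3p (-0.93, SE 0.56), had values above it. miR-143-5p was the only rare arm of the 21 that was itself called. The abundant arm, miR-143-3p, rose with a log2 fold change of +0.98 (SE 0.21, adjusted p = 0.000774; 0.550 under the implied read total), and the difference between the arms was not tested. Per 10000 counts of miR-143-3p there were 0.331 of miR-143-5p on the normal diet and 2.45 on fish oil.

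The opposite direction is seen in the miR-191a hairpin, where the abundant arm fell (-1.59, SE 0.21, adjusted p = 5.58e-07) and miR-191a-3p had -0.93 (SE 0.56, adjusted p = 0.240). The rare arms of miR-122 (-1.08, SE 0.70) and miR-872 (-1.18, SE 0.76) had values near those of the abundant arms, -1.11 (SE 0.43) and -0.80 (SE 0.23). miR-145-3p (+1.25, SE 0.43) was likewise near miR-145-5p (+1.14, SE 0.33, adjusted p = 0.0109, and 0.868 under the implied read total). The plot of both arms sets these values side by side.

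**Figure D5:**
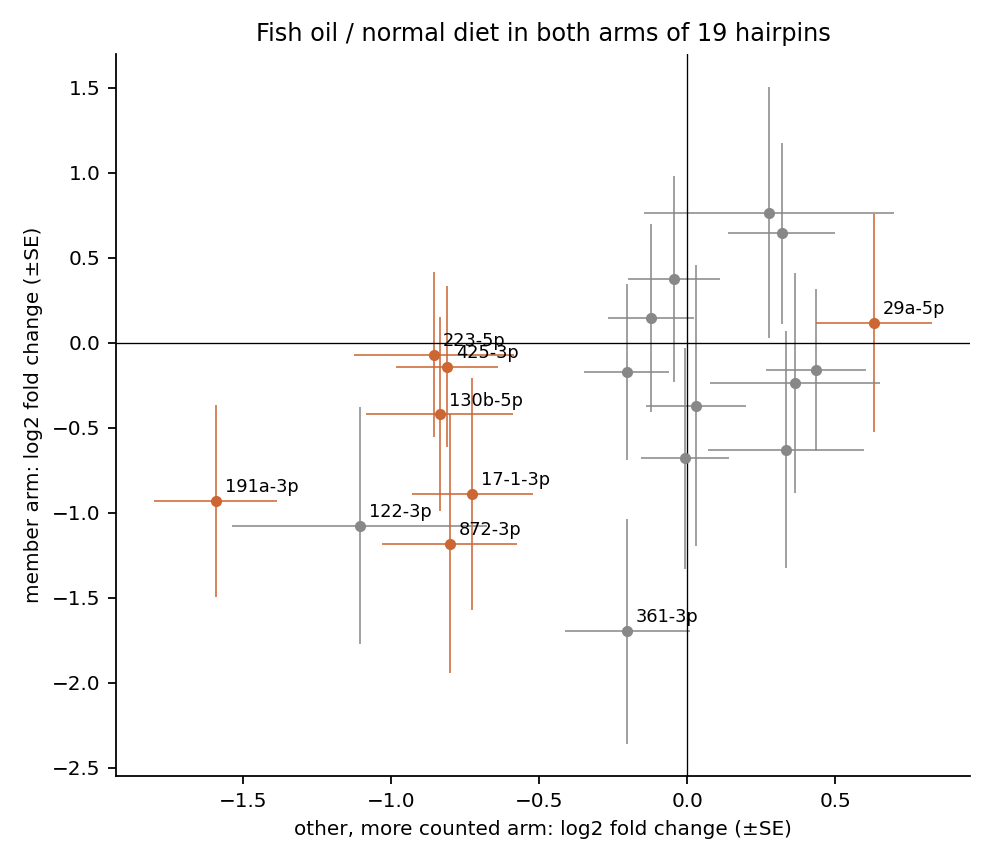
Log2 fold change of fish oil over the normal diet for the rare arm (vertical axis) against that of the other, at least 10 times more abundant arm (horizontal axis), with SE, in 19 hairpins; miR-151-5p is left out because its reads are shared and miR-143-5p because it had no count in 1 group. Orange marks hairpins whose abundant arm was called, and the point furthest to the left is the miR-191a hairpin.

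By position, 15 of the 86 (17.4%) had a locus on chromosome X, against 12.7% of all tested names, and 9 were on chromosome 6. A counted miRNA lay within 10 kb for 39 of them, where 150 bases around each were left out as its own hairpin. This also left out a close hairpin, that of miR-16-3p, as a neighbour of miR-15b-3p. Of the 86, 16 were listed at several places in the genome. Where a miRNA has copies, the table does not show which copy a read came from.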

How the data were processed

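Serum small RNA libraries (CleanTag kit, 10 ng RNA from 100 µl serum, 50 cycles, per the labels' protocols) were analysed as 1 library per rat. The submitters' processing notes name the build rn5, Bowtie 1.0.0, Partek and bcl2fastq. The order of steps and the annotation were not given in the sources used here. Deposited by the authors were expected counts per miRNA locus (50 of 832 loci hold fractions) and RPM values. The RPM values deposited by the authors equal the counts divided by a larger total, here the implied read total, plus 0.0001. Labels list 24 samples, and replicate 2 of fish oil in ozone was not analysed here. Replicate numbers follow accession order and pair no rats.

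Loci were summed by name and rounded. The 245 names with a mean of 1 or more were tested with edgeR 4.0.16 in R 4.3.3 (TMM, robust quasi-likelihood, 1 mean per group over all 4 groups, Benjamini-Hochberg, 0.05), after a test on simulated data. All 86 low-abundance names passed this filter. DESeq2 1.42.0, other filters and scalings, and leaving out each library were alternatives. Intervals are exact Poisson or binomial at 95% and cover counting error only. Positions are as deposited, with the first base not stated to be 0 or 1.

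The members and lists were chosen with earlier results of these data known. Named were the 8 smallest p for fish oil, the 5 for ozone, any miRNA called, the 5 most and 5 least detected, those at the ends of the range, and up to 4 examples per list, with shared seeds, other arms and neighbours within 10 kb.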

Additional observations from a re-analysis of the deposited data

Results flagged for a closer look

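Groups of values of the 8 miRNAs called for fish oil and of the library measures were searched for a library far from the rest, 39 groups of 5 or 6 in all, and 2 had one, where chance alone flags about 1 in 20. The highest normal air value of miR-143-5p was 37.76 CPM in normal air 5, which is 2 counts. The highest fish oil ozone value of miR-674-5p was 33.75 CPM in fish oil ozone 1, which is 1 count where the other 4 libraries had 0.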

How the results depend on the processing

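Calls among the 86 for fish oil averaged over exposures numbered 8, and 13 with DESeq2, 16 with the implied read total and 5 to 11 when 1 library was left out, lowest without normal ozone 1. In air the 0 calls became 1 with no filter, 2 with total count scaling, 3 with the implied read total, 1 without both fish oil replicates 3 and 0 to 2 when 1 library was left out. DESeq2 without independent filtering, chosen after seeing the data because DESeq2 gave no adjusted p in air, called 1 there. In ozone the 3 calls, all higher, became 3 higher and 1 lower with DESeq2 and with total count scaling, 2 higher and 1 lower with no filter, 0 higher and 3 lower with the implied read total, and 0 to 9 when 1 library was left out. The number detected per library, 8.57 lower on fish oil, became 4.09 higher when the miRNA totals were made equal (range -10.05 to -6.95 when 1 library was left out). The pooled level, +0.46 on the log2 scale, became -0.53 per implied read (0.41 to 0.49 when 1 library was left out). The cause of these changes was not tested, beyond the reduced totals for detection. Counts among the 86 for ozone, the interaction and the detection test were 0 in every alternative that gave a value. The edgeR low-count filter kept 0 of the 86 and gave no value. Of 41 single results on 36 miRNAs, 36 kept their direction in every alternative. The exceptions were for fish oil averaged over exposures. Under the implied read total miR-322-5p became -0.34, miR-450b-3p -0.18, miR-434-3p -0.12, miR-409b -0.76 and miR-351-5p -0.72. miR-351-5p was -0.02 with no filter. Leaving out 1 library turned miR-409b in 10 cases (range -0.19 to 0.18 over all libraries left out) and miR-351-5p in 9 (range -0.25 to 0.14). No paired analysis was possible because replicate numbers follow accession order and pair no rats. Depth limits these results, since 64.1% of values were 2 counts or fewer.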
